A study of Homo sapiens with 6 samples.

Results

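The transcription factors GATA1, GATA2, ZFPM1, TAL1, LMO2, LDB1, GFI1B, LYL1, RUNX1 and NFE2 were examined in 6 monoclonal lines of K562, a human chronic myeloid leukemia line with erythroid and megakaryocytic features. They were taken as a named group of genes, and each of the 10 was measured by 1 probe set annotated to no other gene, among 33297 probe sets and 18417 genes with a symbol of their own. The first group of 3 lines carried the empty plasmid pEF1α and the second group of 3 carried pEF1α-Pu.2, which expresses the murine Pu.2 cDNA. Pu.2 is a form of the myeloid factor PU.1 that keeps the DNA-binding domain and lacks the N-terminal activation domain. All lines had been electroporated, selected with puromycin and grown from a single clone, so each value stands for 1 clone (called vector clones 1 to 3 and Pu.2 clones 1 to 3 here) and 1 array. The arrays read RNA of whole cultures, in which fewer expressing cells and less RNA per cell cannot be told apart. The comparison asked whether the levels of the factors that run the erythroid program differed between lines with and without PU.2.

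In red cell precursors GATA1 or GATA2 binds GATA motifs beside E-box motifs that are bound by TAL1, or its close relative LYL1, in a dimer with an E protein. LMO2 bridges these DNA-bound factors and LDB1 holds LMO2 and pairs distant elements with promoters, which makes a complex known for driving globin, heme and red cell membrane genes. ZFPM1 (FOG1) is a cofactor that binds GATA1, GFI1B is a repressor that brings in the demethylase KDM1A, RUNX1 works with its partner CBFB in stem cells and megakaryocytes, and NFE2 acts with small MAF proteins at the globin locus and in platelet formation. PU.1 is known to bind GATA1 and to block its activity, and GATA1 does the same to PU.1.

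None of the 10 factors passed limma over all genes, in either direction. The largest difference was in LDB1, which was 1.38-fold higher in the Pu.2 clones (95% interval 1.05 to 1.83). The largest difference downward was in RUNX1, at 0.817 of the vector level (95% interval 0.609 to 1.09). In all 10 the 95% interval of the fitted difference lay within a 2-fold change either way, which was so for 94.1% of all genes. Over all genes 0.369% passed at an adjusted p under 0.05. At an unadjusted p under 0.05 LDB1 was the 1 factor that passed, where 9.53% of all genes did. The median log2 difference was 0.08 over the 10 factors and 0.02 over all genes, and the median size of a difference, whatever its sign, was 0.14 and 0.12. Each of the 10 averaged at least the median of all probe sets, as did 10496 of 18417 genes. The lowest was LMO2, at the 61.2th percentile of the probe sets. Probe sets bind with different strength, so the level of one gene was not set against that of another.

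Promoter windows were read for GATA1 and LDB1, the factors whose groups did not overlap, for TAL1, and for ALAS2, the target with the greatest difference. Each run is the 250 bases before the RefSeq start of GRCh38.p14, 5′ to 3′ on the strand of the gene. Capitals mark GATA words (AGATAA and TGATAA, and both with G as the last base) and the PU.1 core GAGGAA, on either strand. The windows lie at chrX:48786340-48786589 on the plus strand for GATA1, chr10:102115003-102115252 on the minus strand for LDB1, chr1:47232336-47232585 on the minus strand for the first of 2 TAL1 starts, and chrX:55030978-55031227 on the minus strand for ALAS2.
GATA1: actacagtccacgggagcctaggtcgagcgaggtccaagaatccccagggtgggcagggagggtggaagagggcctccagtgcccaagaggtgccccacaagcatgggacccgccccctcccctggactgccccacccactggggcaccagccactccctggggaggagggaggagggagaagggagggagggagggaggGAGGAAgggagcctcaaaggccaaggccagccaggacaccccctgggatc
LDB1: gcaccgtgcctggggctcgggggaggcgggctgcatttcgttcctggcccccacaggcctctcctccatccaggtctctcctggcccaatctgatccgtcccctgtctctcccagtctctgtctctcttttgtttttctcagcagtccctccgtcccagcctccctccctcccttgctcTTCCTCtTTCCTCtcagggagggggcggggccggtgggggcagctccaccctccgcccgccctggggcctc
TAL1: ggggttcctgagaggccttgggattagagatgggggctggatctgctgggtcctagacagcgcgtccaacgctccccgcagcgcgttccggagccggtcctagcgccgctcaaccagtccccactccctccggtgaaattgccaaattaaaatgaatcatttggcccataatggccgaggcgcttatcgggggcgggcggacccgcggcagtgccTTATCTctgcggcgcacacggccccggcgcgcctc
ALAS2: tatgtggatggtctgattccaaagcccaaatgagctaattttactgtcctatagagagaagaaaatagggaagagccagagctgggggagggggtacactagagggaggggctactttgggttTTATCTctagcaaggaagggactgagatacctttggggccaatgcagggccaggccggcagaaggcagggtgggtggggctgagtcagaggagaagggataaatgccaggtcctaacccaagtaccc

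The GATA1 window held 1 PU.1 core, 0 GATA words and 4 copies of CACCC, the motif of Krüppel-like factors. The LDB1 window held 2 PU.1 cores, both as the reverse complement, and 0 GATA words. TAL1 and ALAS2 each held 1 GATA word, read as its reverse complement on the strand shown, and 0 PU.1 cores. Of the 10 factors, 8 had windows in the table, 11 in all and on 8 chromosomes. A GATA word was found in 3 of the 11 windows (of TAL1, GFI1B and LYL1), beside 22.3% of 35116 windows of that length over all genes. A PU.1 core was found in 7 of the 11 windows (of GATA1, GATA2, LDB1, GFI1B, LYL1 and RUNX1), beside 23.6% of all windows. The groups overlapped in GATA2, GFI1B, LYL1 and RUNX1 and not in GATA1 and LDB1. Whether a core goes with a difference was not tested. An E-box CANNTG was found in 4 windows (61.8% of all windows) and CACCC in 7 (54.7%). Each motif was counted on both strands. A match describes the letters only and not whether a factor was bound.

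GATA1, the master factor of erythroid cells, had log2 values of 7.89, 7.84 and 7.66 in vector clones 1, 2 and 3 and of 7.90, 8.06 and 7.98 in Pu.2 clones 1, 2 and 3. The groups did not overlap, though vector clone 1 and Pu.2 clone 1 lay next to each other, and vector clone 3 was lowest. The log2 difference was 0.18 (standard error 0.12, 95% interval -0.09 to 0.46, adjusted p = 0.72 from limma). GATA2, which precedes GATA1 in progenitors, had 7.01, 6.98 and 7.43 in the vector clones and 7.16, 7.35 and 7.08 in the Pu.2 clones. Here vector clone 3 was the highest of the 6 and the groups overlapped. Its log2 difference was 0.06 (standard error 0.15, adjusted p = 0.96 from limma). ZFPM1, the GATA1 cofactor, had 6.86, 6.60 and 6.44 against 6.62, 6.75 and 6.60, a log2 difference of 0.02 (standard error 0.14, adjusted p = 0.98 from limma). As for GATA1, its lowest value was in vector clone 3. The difference of vector clone 3 from the mean of vector clones 1 and 2 was -0.21 in GATA1, -0.29 in ZFPM1 and 0.43 in GATA2.

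TAL1, the basic helix-loop-helix factor of the complex, had log2 values of 6.49, 6.90 and 6.98 in the vector clones and of 7.15, 7.23 and 6.74 in the Pu.2 clones. The groups overlapped because Pu.2 clone 3 lay under vector clones 2 and 3. The log2 difference was 0.25 (standard error 0.18, 95% interval -0.17 to 0.67, adjusted p = 0.78 from limma), and it was 0.10 without vector clone 1 and 0.40 without Pu.2 clone 3. LYL1, its relative, had 6.95, 6.70 and 6.41 in the vector clones and 6.88, 6.68 and 6.79 in the Pu.2 clones, which lay inside the range of the vector clones. Its log2 difference of 0.10 (standard error 0.16, adjusted p = 0.92 from limma) became -0.04 without vector clone 3.

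Of the bridging proteins, LMO2 had the smallest difference of the 10 factors and LDB1 the largest. LMO2 had log2 values of 6.05, 5.89 and 5.96 in the vector clones and of 6.14, 5.79 and 6.04 in the Pu.2 clones. The difference was 0.02 (standard error 0.13, 95% interval -0.28 to 0.32, adjusted p = 0.98 from limma). LDB1 had 9.19, 8.87 and 9.12 in the vector clones and 9.41, 9.88 and 9.31 in the Pu.2 clones. Each Pu.2 clone lay above each vector clone, and Pu.2 clone 2 stood highest. The log2 difference was 0.47 (standard error 0.17, 95% interval 0.07 to 0.87, adjusted p = 0.43 from limma). It was 0.30 without Pu.2 clone 2 and from 0.37 to 0.58 without any of the other lines. With array weights LDB1 was at 0.68 (adjusted p = 0.031 from limma), under which 7.32% of all genes passed and vector clone 2 alone had a weight of 5.52 against 0.404 to 1.34 in the other lines. GATA1 and LDB1 were the 2 of 10 factors without overlap of the groups, where 13.8% of all genes had none. With 3 clones in each group the lowest p that an exact permutation test allows is 0.1.

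**Figure D1:**
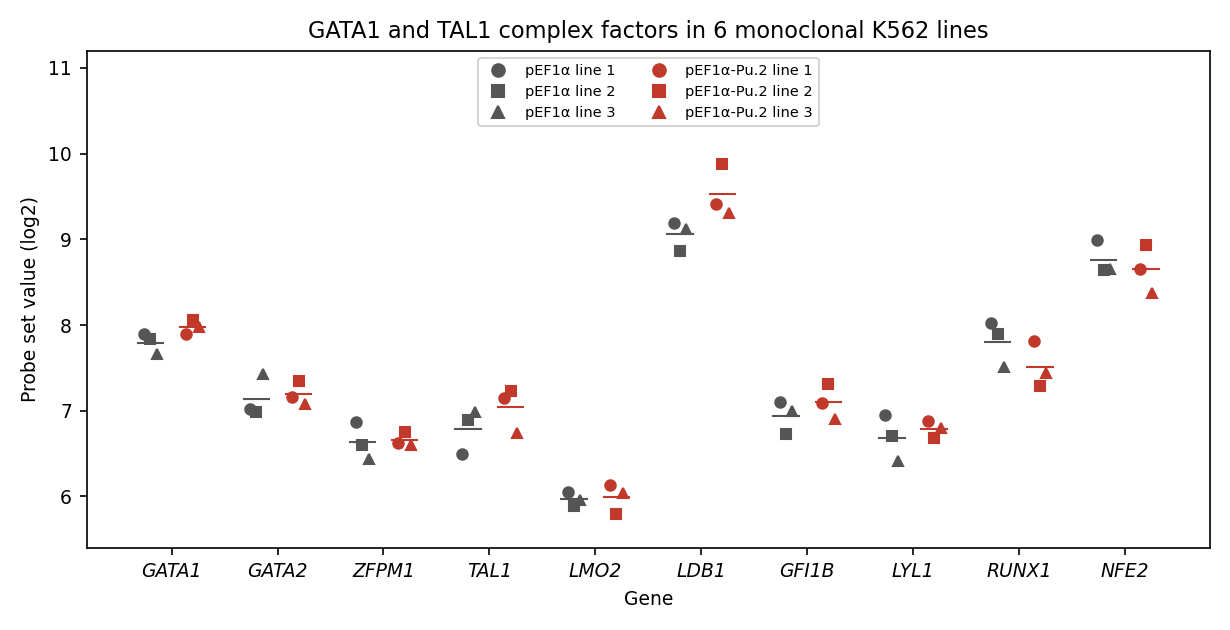
Values of the 10 factors (vertical axis, log2) by clone. Each symbol is 1 clone and each bar a mean of 3 clones, in gray where the plasmid was empty and in red where it held Pu.2, and of the 10 factors only GATA1 and LDB1 have all red symbols above all gray ones.

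GFI1B, the repressor, had log2 values of 7.10, 6.73 and 6.99 in the vector clones and of 7.09, 7.32 and 6.91 in the Pu.2 clones. Its difference was 0.16 (standard error 0.15, 95% interval -0.19 to 0.51, adjusted p = 0.84 from limma), with overlap of the groups. RUNX1 had 8.02, 7.89 and 7.51 in the vector clones and 7.81, 7.29 and 7.44 in the Pu.2 clones. The overlap came from vector clone 3, which lay under Pu.2 clone 1. The log2 difference was -0.29 (standard error 0.18, 95% interval -0.71 to 0.13, adjusted p = 0.71 from limma). It was -0.44 without vector clone 3 (adjusted p = 0.35, against 2.35% of all genes past the test in that fit). NFE2 had 8.99, 8.64 and 8.66 against 8.65, 8.94 and 8.37. Its highest value was in vector clone 1 and its lowest in Pu.2 clone 3, and the difference was -0.11 (standard error 0.17, adjusted p = 0.91 from limma). No factor passed the test without vector clone 3, in which LDB1 had the lowest adjusted p, 0.34.

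**Figure D2:**
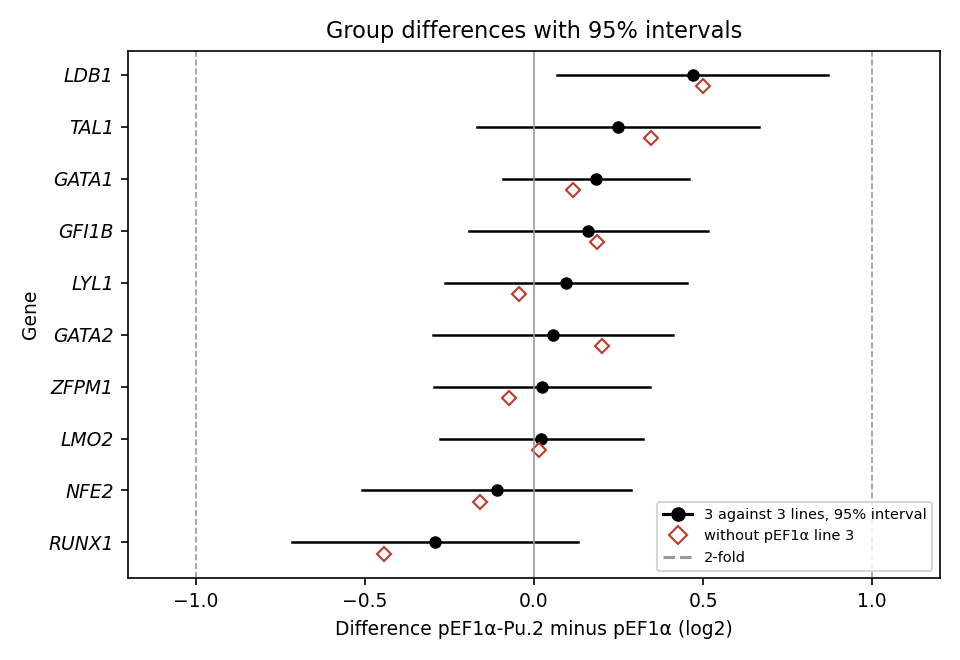
Log2 difference of the 10 factors, pEF1α-Pu.2 minus pEF1α (horizontal axis), with 95% intervals from limma as bars and the value without pEF1α line 3 as open diamonds. Every bar lies between the dashed lines of a 2-fold change, and the bar of LDB1, from 0.07 to 0.87, is the 1 that does not cross 0.

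The factors did not share 1 pattern over the lines. The SD over the 6 lines went from 0.13 in LMO2 to 0.34 in LDB1, which lay at the 21.7th and 87.8th percentile of all genes. RUNX1 and TAL1 followed LDB1 in spread, with an SD of 0.29 and 0.27. Vector clone 1 held the highest value for 4 factors (ZFPM1, LYL1, RUNX1 and NFE2) and Pu.2 clone 2 for another 4 (GATA1, TAL1, LDB1 and GFI1B). The same Pu.2 clone 2 held the lowest value for LMO2 and RUNX1, at -0.19 and -0.37 from the mean of the 6 lines. Among all arrays vector clone 3 correlated across genes at r = 0.979 to 0.982 with the Pu.2 clones and at 0.973 and 0.981 with vector clones 1 and 2, where genes are not independent replicates. For the factors it was lowest in GATA1, ZFPM1 and LYL1 and highest in GATA2.

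**Figure D3:**
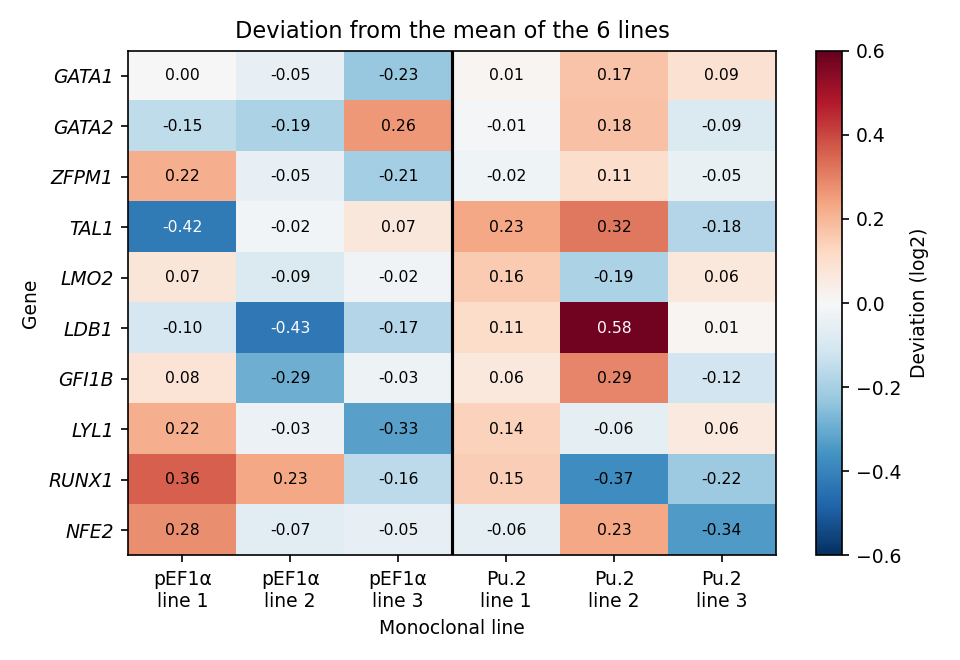
Deviation of each factor's log2 value from its mean over the 6 lines (color and printed number), with lines in columns and factors in rows. The widest row is LDB1, from -0.43 in pEF1α line 2 to 0.58 in Pu.2 clone 2, and pEF1α line 3 is at -0.23 for GATA1 and 0.26 for GATA2.

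Among 5011 genes with at least the median level and an SD of at least 0.2, the genes most like GATA1 over the 6 lines were LRRC15 (Pearson r = 0.999), SAP30, a subunit of a histone deacetylase complex (0.995), and the antioxidant enzyme GPX1 (0.99). All had their lowest value in vector clone 3 and their highest in Pu.2 clone 2. Those most like LDB1 were GLRX5, which acts in mitochondrial iron-sulfur cluster assembly (r = 0.98), EPB41, the membrane skeleton protein 4.1 (0.98), and CCDC32 (0.976). EPB41 had log2 values of 9.90, 9.72 and 9.89 in the vector clones and of 10.11, 10.32 and 10.07 in the Pu.2 clones. These genes were picked for the highest r over 6 lines, and none of the 6 passed limma. The genes next to the factors on their chromosomes were also read. Of 20 such neighbors none passed limma, 4 had no overlap of the groups, against the 13.8% of all genes given above (PDZK1IP1 beside TAL1 with higher values in the Pu.2 clones, and GTF3C5, TRMT1 and SETD4 beside GFI1B, LYL1 and RUNX1 with lower ones), and their log2 differences went from -0.41 to 0.28. HPS6 and PPRC1, on either side of LDB1, had log2 differences of -0.05 and -0.004.

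Partners that bind the factors did not pass the test either. Of 11 partners limma called 0 over all genes. At an unadjusted p under 0.05 it found 2 with higher and 1 with lower values, where 9.53% of all genes passed in either direction. The E proteins TCF4 and TCF12, which dimerize with TAL1, were the higher ones. TCF4 had 7.30, 7.52 and 7.22 in the vector clones and 8.46, 7.57 and 7.66 in the Pu.2 clones, a log2 difference of 0.55 (adjusted p = 0.50 from limma). TCF12 had a log2 difference of 0.33 (adjusted p = 0.41), without overlap of the groups as well. The lower one was CBFB, the subunit that stabilizes RUNX1 on DNA. CBFB had log2 values of 9.86, 9.91 and 9.69 in the vector clones and of 9.38, 9.26 and 9.20 in the Pu.2 clones. All Pu.2 clones lay below all vector clones, with a log2 difference of -0.54 (adjusted p = 0.15 from limma, standard error 0.12). It was -0.61 without vector clone 3 (adjusted p = 0.059), and with array weights CBFB passed (adjusted p = 0.0103). CBFA2T3 (ETO2), a corepressor of the TAL1 complex, had a log2 difference of -0.34 (adjusted p = 0.72), and -0.60 without vector clone 3 (adjusted p = 0.0985). The LDB1-binding proteins SSBP2, SSBP3 and SSBP4 had log2 differences of -0.04, 0.06 and -0.02.

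The chromatin cofactors that these factors recruit did not pass the test. Of 15 corepressor subunits 0 passed limma, and 1 (RBBP7) had an unadjusted p under 0.05, against 9.53% of all genes. Of the 15, 12 had log2 differences below 0, as had 45.9% of all genes. In 4 of the 15, RBBP7 and KDM1A among them, all Pu.2 clones lay below all vector clones, as in 1252 of 18417 genes. In 0 of the 15 did they lie above. Over the 15 the median was -0.08 and the range was from -0.27 to 0.19. RBBP7, a histone-binding NuRD subunit, had -0.27 (adjusted p = 0.51 from limma), the demethylase KDM1A -0.22 (adjusted p = 0.65) and the deacetylase HDAC1 -0.20 (adjusted p = 0.83). Of 5 measured coactivators 0 passed, adjusted or not. The acetyltransferases EP300 and CREBBP had log2 differences of 0.29 each (adjusted p = 0.53 and 0.69), and the remodeler SMARCA4 one of -0.17 (adjusted p = 0.84). Of 15 paralogs, such as GATA3, GFI1 and RUNX2, 0 passed (0 at an unadjusted p under 0.05). Their median log2 difference was 0.14, beside 0.02 over all genes, and 8 of the 15 averaged at least the median level of all probe sets. RUNX2 had the largest, -0.49 (adjusted p = 0.59), and TAL2 and GATA5 had 0.25 each (adjusted p = 0.74 and 0.79). The values of RUNX2 were 6.30, 5.54 and 5.29 in vector clones 1, 2 and 3 and 5.16 to 5.25 in the Pu.2 clones. Among 4 measured small MAF and BACH genes and 4 ID inhibitors of E proteins 0 passed, adjusted or not. BACH2, which competes with NFE2 for its sites, had a log2 difference of -0.67 (adjusted p = 0.58), with 5.70 and 5.98 in vector clones 1 and 2 and 4.66 in vector clone 3, and of -1.06 without vector clone 3 (adjusted p = 0.019) and -1.14 with array weights (adjusted p = 0.031). ID2 had a log2 difference of 0.49 (adjusted p = 0.84) and overlapped widely, whereas ID4 had 0.26 without overlap (adjusted p = 0.60) and ID1 had -0.04. The small MAF gene MAFF had 0.21 (adjusted p = 0.74) and BACH1 0.09 (adjusted p = 0.91). Both ID4 and MAFF had a low level, with means at the 31.9th and 28.6th percentile of the probe sets. In each of these 2 lists 2 of 4 genes averaged at least the median level of all probe sets.

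Some textbook targets of the complex passed the test. Of 17 measured erythroid targets ALAS2, the first enzyme of heme synthesis, and the embryonic globin HBZ rose over all genes by limma, 0 fell, and the median log2 difference was 0.37. ALAS2 was 8.08-fold and HBZ 3.02-fold higher in the Pu.2 clones (adjusted p = 0.0068 and 0.011 from limma). HBZ, and SLC25A37 named below, had 2 probe sets each, and the values given are of the brighter. All 3 Pu.2 clones lay above all vector clones in 8 of the 17 targets, as they did in 7.02% of all genes. With all 6 lines 0.369% of all genes passed limma. Without vector clone 3 the number of targets that passed was 5, adding HEMGN, FECH and SLC25A37, and 2.35% of all genes passed. In HEMGN and FECH the clone left out lay nearer the Pu.2 clones than the other vector clones did. HEMGN had log2 values of 8.29, 8.74 and 10.56 in the vector clones and of 10.81, 10.87 and 10.86 in the Pu.2 clones. FECH had 6.68, 6.39 and 8.04 against 8.35, 8.80 and 7.93. With all 6 lines their log2 differences were 1.65 and 1.32 (adjusted p = 0.30 and 0.32 from limma). The difference of SLC25A37 was 0.93 (adjusted p = 0.069). Of the 17 targets 15 had a log2 difference above 0 and 2 below, where 45.9% of all genes lay below 0. The globin HBD had one of 1.79 without overlap of the groups (adjusted p = 0.23 from limma). The erythroid factor KLF1 had a log2 difference of 0.19 (adjusted p = 0.75) and the erythropoietin receptor EPOR one of 0.10 (adjusted p = 0.90). The iron sensor TFR2 had one of 0.03 (adjusted p = 0.97) and BCL2L1, a survival gene, one of -0.55 (adjusted p = 0.65). This list was chosen with results of these arrays known, so it is not independent evidence of a direction.

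Of 6 genes known from blood progenitors limma called 0 over all genes, and the median log2 difference was -0.37. At an unadjusted p under 0.05, 1 had higher and 3 had lower values. Over all 18417 genes 705 had higher and 1050 had lower values at that threshold. HHEX, a homeobox factor of progenitors, had log2 values of 9.54, 9.64 and 9.02 in the vector clones and of 8.81, 8.75 and 8.97 in the Pu.2 clones, a difference of -0.56 (adjusted p = 0.33). It was -0.75 without vector clone 3 (adjusted p = 0.028), where MYB also passed the test, as did 2.35% of all genes. MYB and KIT had log2 differences of -0.84 and -0.66 (adjusted p = 0.068 and 0.19 from limma). KIT had a low level, with a mean at the 27.1th percentile of the probe sets, whereas MYB was at the 96.5th. With array weights MYB, KIT and HHEX passed as lower and SPI1 as higher, where 7.32% of all genes passed. SPI1, the gene of PU.1, had 0.33 (adjusted p = 0.43), and whether its probes read the murine Pu.2 transcript was not tested. Of 14 measured megakaryocyte targets 0 passed, adjusted or not, and the median was -0.01. Only 4 of the 14 averaged at least the median level of all probe sets, which limits what this median can show. RAB27B, an NFE2 target in platelets, had -0.98 (adjusted p = 0.66), with 6.14 in vector clone 2 against 3.40 to 3.88 in the other lines, and passed with array weights (adjusted p = 0.036), which gave vector clone 2 the greatest weight. TUBB1, the platelet tubulin, had 0.39 (adjusted p = 0.56) and SELP, the platelet adhesion protein P-selectin, 0.19 (adjusted p = 0.82).

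The labelled cell type was read against its markers. All 5 measured erythroid markers of K562 (HBZ, HBE1, TFRC, KLF1 and EPOR) lay above the median level of the probe sets. As means over the 6 lines, this was so for 1 of 6 myeloid, 1 of 5 lymphoid and 0 of 4 megakaryocyte markers. Over all genes it was so for 10496 of 18417. LYZ, which encodes lysozyme, was the 1 myeloid marker that passed limma, and it fell by 2.64 on the log2 scale (adjusted p = 0.0052 from limma). Its values were 6.72, 6.58 and 5.71 in the vector clones, above the median level of 5.37, and 3.79, 3.66 and 3.64 in the Pu.2 clones. It was counted as below that level because its mean over the 6 lines was 5.02. The other 5 myeloid markers had log2 differences from -0.09 to 0.22, and over the 6 markers 3 were above and 3 below 0, with a median of 0.04. The median level of the 6 was 5.06 to 5.34 in the vector clones and 4.70 to 4.91 in the Pu.2 clones, where LYZ moved from the upper to the lower end of the list. The lymphoid marker CD3D had a log2 difference of -1.25 (adjusted p = 0.0896), and the median value of the lymphoid markers was 5.08 to 5.31 and 5.12 to 5.29. The part of these markers in the values of the factors was not tested.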

How the data were processed

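Total RNA of 6 monoclonal K562 lines, 3 with pEF1α and 3 with pEF1α-Pu.2, was read by the authors on Human Gene 1.0 ST arrays of Affymetrix, 1 per line. With the Expression Console program the authors made a table of log2 values, deposited with a row for each probe set. That the scale is log2 was taken from the range of the values. The sources used here do not give the algorithm or version. Groups came from the sample titles. The labels name an insect cell medium for these lines, whereas the methods give RPMI for K562.

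Probe sets with 1 symbol in the platform annotation (19460 of 33297, of which 19429 matched RefSeq gene IDs) were reduced to the brightest per gene, which gave 18417 genes. No dim gene was removed. The comparison of groups used limma 3.58.1 (R 4.3.3) with lmFit and then eBayes, two-sided, at a threshold of 0.05 after Benjamini-Hochberg adjustment over all genes. The median standard error was 0.16 for the 10 factors, and the smallest difference that passed in any gene had a size of 0.77, and 3 arrays a group limit the precision. The fit was tested on simulated data. Nothing says that the lines were handled separately, so p-values measure the spread between these arrays.

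The factors, the lists of partners and targets and the tests were chosen with earlier results of these data known. Named were all factors, list genes past the test or otherwise up to 3 of each list with the largest differences, and the 3 genes most correlated with GATA1 and with the factor of the largest difference. SSBP2, SSBP3, SSBP4, TCF12, KLF1, EPOR, TFR2 and BCL2L1 were named after their values were seen. So were HBD, HEMGN, FECH, SLC25A37, SPI1, CD3D and the neighbors of the factors. Promoter windows were read from RefSeq of GRCh38.p14. No set test was run.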

Additional observations from a re-analysis of the deposited data

How the results depend on the processing

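The results for the 10 factors were recomputed under 15 alternatives, namely 6 fits without 1 line, a replicate block, array weights, a trended and robust eBayes, a filter on dim probe sets, 3 scalings (cyclic loess, median centring and quantiles), averaged probe sets and, chosen after seeing the data, a test of every probe set. The number of factors past limma was 0 higher and 0 lower in each, except that array weights called 1 higher, LDB1, at a log2 difference of 0.68 (adjusted p = 0.031). GATA1, TAL1, LDB1, GFI1B and RUNX1 kept the sign of their difference under all 15. The other 5 changed it in at least 1. With median centring ZFPM1 was at -0.0091 and LMO2 at -0.012, and with array weights NFE2 was at 0.042. With 1 line left out the range was -0.024 to 0.20 for GATA2, -0.073 to 0.14 for ZFPM1, -0.052 to 0.12 for LMO2, -0.043 to 0.23 for LYL1 and -0.25 to 0.032 for NFE2. The median over the factors stayed between 0.03 and 0.12.

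Same-numbered lines did not deviate together (r = -0.147, -0.148 and -0.0446 across genes), so the replicate block has no basis beyond the number. With the replicate block the median over the factors was 0.08 and LDB1 had an adjusted p of 0.60. Without vector clone 3 the genes that passed went from 2 to 5 higher among erythroid targets, from 0 to 2 lower among progenitor genes, from 0 to 1 lower among small MAF and BACH genes and from 0 to 1 lower among lymphoid markers. With array weights, tried on the lists after seeing the data, 6 erythroid targets and 1 progenitor gene were higher, and 3 progenitor genes and 1 gene each of the partners, the small MAF and BACH genes, the megakaryocyte targets and the lymphoid markers were lower. Over all genes 27 were higher and 41 lower, 159 and 273 without vector clone 3, 8 to 16 and 11 to 27 without another line, and 514 and 835 with array weights. The causes were not tested.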
